A study of Homo sapiens with 10 samples.

Results

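Positions 4180 to 4429 of human 28S rRNA make up 250 of the 6939 positions of 18S and 28S rRNA that were counted in PA1 cells, a line derived from an ovarian teratoma. They were chosen by position alone, numbered as in the deposited counts, where the first base of 28S rRNA is 0. The study's list of known 2′-O-methylated (2′-OMe) positions places 6 of its 106 sites here: G4195, U4226, G4227, U4305, G4369 and G4391. RibOxi-seq was applied to total RNA from these cells. In the oxidized libraries, periodate oxidation and β-elimination remove the terminal unmethylated nucleotide of Benzonase fragments, and after removal of the phosphate left behind another periodate step blocks every 3′-end that is not 2′-OMe, so that mainly ends on a 2′-OMe nucleotide can be ligated to a linker. In the paper's protocol, control samples are set aside after fragmentation and go without oxidation, β-elimination and phosphate removal until linker ligation. They hold the ends that Benzonase leaves, and the paper reports that Benzonase does not cut at 2′-OMe nucleotides. The 2 kinds of library thus differ in the exposure of 2′-OMe ends as well as in oxidation. The NextSeq experiment had 3 control libraries and 3 oxidized libraries, in which replicates 1 and 2 of both groups came from cells at passage 6 and replicate 3 of both groups from cells at passage 4. The MiSeq pilot had 2 control and 2 oxidized libraries, all from passage 7. No genetic change or drug treatment of the cells is given in the labels. Nothing in the labels says that replicates were grown as separate cultures, so the p-values measure the spread between these samples, which may be technical.

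Ribose 2′-O-methylation of rRNA is guided by C/D box small nucleolar RNAs (snoRNAs). A stretch of the snoRNA pairs with the rRNA, and fibrillarin methylates the rRNA nucleotide that pairs with the fifth snoRNA base before box D or the related box D′. The P loop, at the 5′ side of the region, pairs with the CCA end of the tRNA in the ribosomal P site. G4195 is the second guanosine of the run of guanosines in that loop, and the equivalent guanosine is also ribose methylated in bacteria. G4391 lies at the start of the conserved gggauaac stretch, which contributes to the ring of the peptidyl transferase centre. The remaining 28S sequence between them is not part of the P loop, so that part of the region's name holds only for its 5′ side.

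The region is shown in full because the known sites, their spacing and the pair of adjacent sites are read from it. Capitals mark the 6 known sites, 5′ to 3′:

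28S 4180 to 4429: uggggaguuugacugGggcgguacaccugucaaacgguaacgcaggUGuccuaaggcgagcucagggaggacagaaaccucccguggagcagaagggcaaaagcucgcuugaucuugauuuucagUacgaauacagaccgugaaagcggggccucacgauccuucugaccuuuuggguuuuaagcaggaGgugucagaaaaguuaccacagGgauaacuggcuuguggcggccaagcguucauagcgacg

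In hg19 (GRCh37) this sequence lies on the plus strand of the unplaced contig GL000220.1, at chrUn_gl000220:117528-117777, within the 28S part of an rDNA unit. An identical copy lies at chrUn_gl000220:161500-161749 of the same contig, and reads from the 2 copies cannot be told apart. The reference base matched the listed base at all 6 sites. The sites stand 31, 1, 78, 64 and 22 nt apart. The nearest known site outside the region was C4053, 142 nt before G4195, and on the other side C4455, 64 nt after G4391.

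The snoRNAs that the list names for these sites were read from the same genome build, to show which 28S bases each one can pair with. For U4226 the list names U58C alone, and for G4227 it names U58A, U58B and U58C. SNORD58A and SNORD58B are shown for U4226 too, since they hold the same matching bases. In each guide, 5′ to 3′, the capital marks the base that pairs with the methylated nucleotide:

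SNHG1 locus, for G4195: uaccgccCcaguc

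SNORD58A, SNORD58B and SNORD58C, for U4226: cuuaggacAccu

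SNORD58A, SNORD58B and SNORD58C, for G4227: cuuaggaCaccu

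SNORD41, for U4305: guauucguAcug

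SNORD60, for G4369: uucugacacCuc

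SNORD1B, for G4391: aguuaucCcugu

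Each is an uninterrupted Watson-Crick match, of 13 bp for G4195 and of 12 bp for the others. The match for G4195, listed under U31, was found in SNHG1, the host gene of SNORD31, at 62620835 to 62620847 on the minus strand of chromosome 11. U4226 and G4227 are matched by the same 12 bases of the U58 snoRNAs, opposite 28S positions 4223 to 4234. In SNORD58A these bases are at 47017690 to 47017701, in SNORD58B at 47018071 to 47018082 and in SNORD58C at 47015651 to 47015662, all on the minus strand of chromosome 18. The match of SNORD41 is at 12817273 to 12817284 on the minus strand of chromosome 19, that of SNORD60 at 2205072 to 2205083 on the minus strand of chromosome 16, and that of SNORD1B, a member of the snR38 family, at 74557211 to 74557222 on the plus strand of chromosome 17. The box D letters CUGA, searched on the snoRNA strand only, began right after the fifth base counted from the partner base for G4195, U4305 and G4391, which 2.23% of all bases did in the 55 SNORD genes read. At the same place stood AUGA in SNORD60, and in the U58 snoRNAs UGGA when counted from the partner of U4226 and UUGG when counted from the partner of G4227. A match of letters is a description and does not show which snoRNA acts on a site.

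Total counts over 18S and 28S were 72458614 to 80964624 in the NextSeq control libraries, 12293410 to 13694386 in the oxidized NextSeq libraries, 30392418 and 44061905 in the MiSeq control libraries and 1353768 and 1568883 in the oxidized MiSeq libraries. In the region, 86.0% to 90.3% of the positions with counts in an oxidized library held a multiple of 50, and below 50 counts are taken as 1 read, a step whose cause was not tested. Values are given as deposited counts or as CPM, the count divided by the library total and multiplied by 1000000. Counts compare a position between libraries, and levels of different positions also carry whatever the nuclease and the ligase prefer. Control NextSeq replicate 3, the only control library at passage 4, stood apart from the other control NextSeq libraries. Across the 244 positions of the region that are not known sites, its counts had a Spearman's rho of 0.18 with replicate 1, against 0.995 between replicates 1 and 2, a description over neighbouring positions of single libraries. Values that rest on it are given with and without it, where computed, if leaving it out turns a direction or moves a value by over 1.5 times.

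Few ends fell on the 6 sites in the control libraries, and most ends fell on them in the oxidized libraries. The known sites held 0.0750%, 0.0603% and 0.839% of the region's counts in the control NextSeq libraries and 90.6%, 91.5% and 92.2% in the oxidized ones. The groups did not overlap, and the difference of means was 91.1 percentage points (exact two-sided permutation test, p = 0.1, the smallest that 3 against 3 libraries allow). In the MiSeq pilot the share was 0.0314% and 0.0263% in the control libraries and 62.5% and 62.4% in the oxidized ones, a difference of 62.4 percentage points (exact permutation test, p = 0.33, the smallest for 2 against 2). The share in the oxidized libraries was thus 29.0 percentage points higher in the NextSeq experiment, with no overlap (exact permutation test, p = 0.2, the smallest for 3 against 2). Passage, sequencer, depth and experiment changed together, as did the RNA input, which the paper describes as small in the pilot. They cannot be told apart in this difference.

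**Figure D1:**
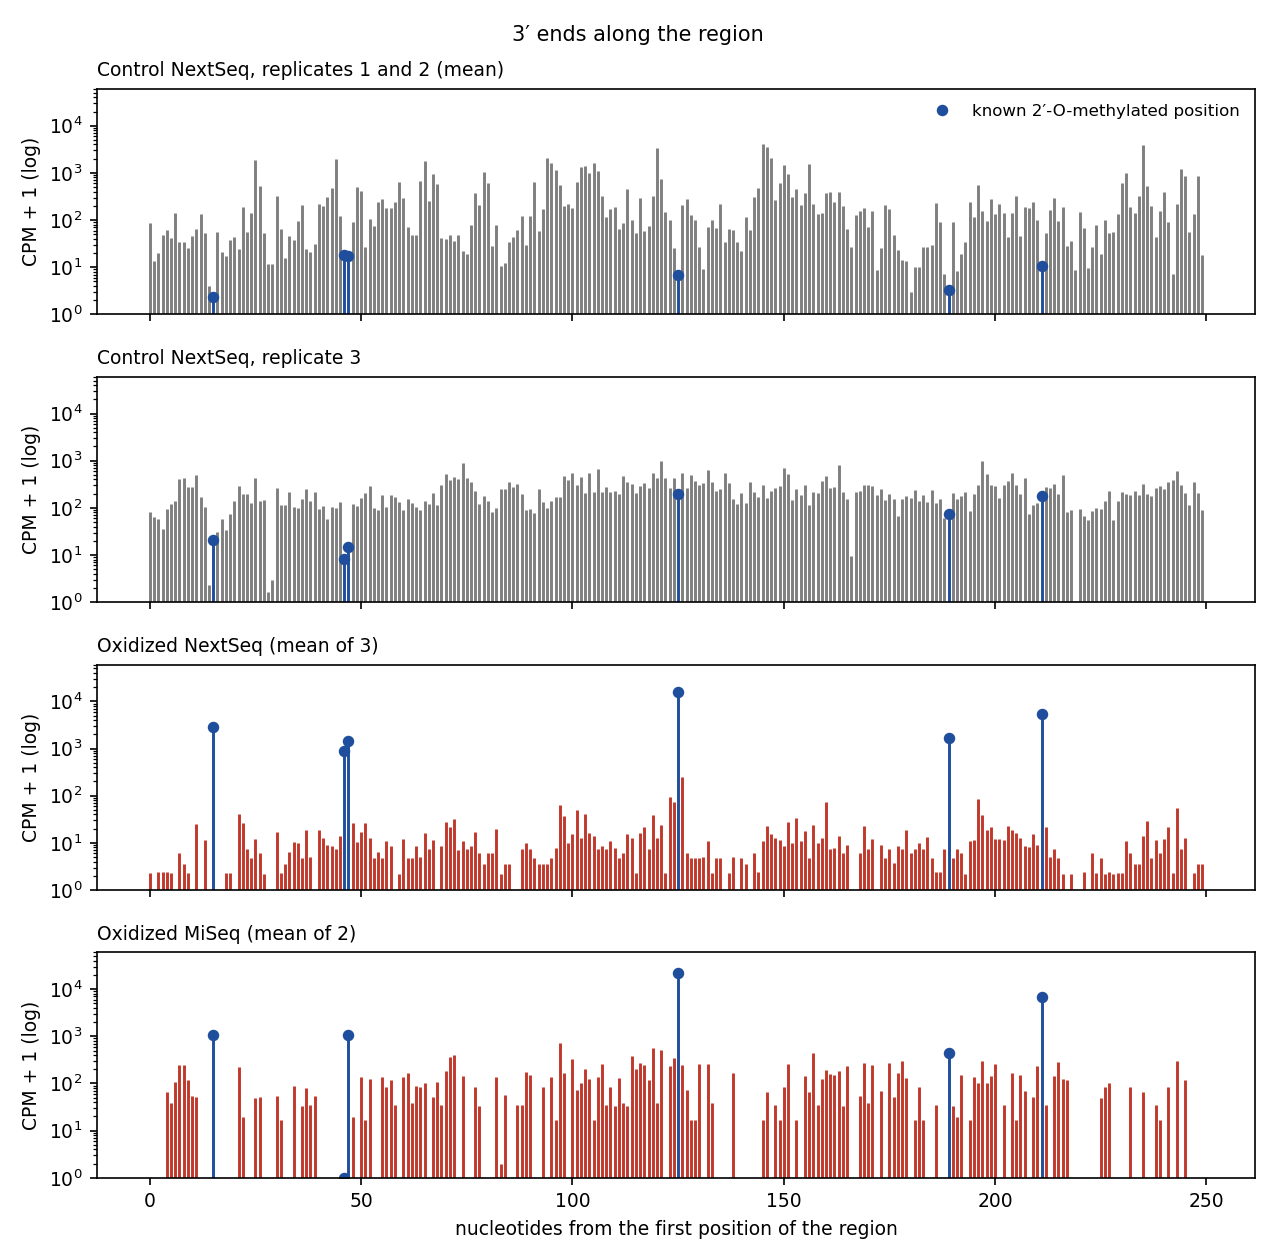
CPM + 1 on a log scale at each of the 250 positions, plotted by distance from the first position of the region, in control NextSeq replicates 1 and 2 (mean), control NextSeq replicate 3, the 3 oxidized NextSeq libraries (mean) and the 2 oxidized MiSeq libraries (mean); blue points are the 6 known sites. The known sites stand above every other position in the oxidized NextSeq libraries and low among their neighbours in control replicates 1 and 2, while replicate 3 has a flatter profile.

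All 6 known sites were called in the NextSeq experiment, with a log2 fold change of oxidized over control above 7 and an adjusted p under 0.05 (edgeR's quasi-likelihood test, TMM scaling, Benjamini-Hochberg adjustment over all positions). No other position of the region was called, also at a log2 fold change above 6. Of the 6718 positions tested in 18S and 28S, 1.53% were called, and 1.58% at the lower fold. In CPM, every oxidized library was above every control library at 6 positions of the region, the 6 known sites, against 1.65% of all positions. At the stricter adjusted p of 0.0001 edgeR called none of the 6718 positions, the 6 sites included, although each of the 6 had an unadjusted p under 0.05 and DESeq2's Wald test called all 6 there. The size of the fold depends on the scaling: under TMM the median position of 18S and 28S had a log2 fold change of -2.25, and with library totals only it had -6.26. With totals only, 2 of the 6 sites, G4195 and U4305, passed the fold threshold, and the median of the 6 sites moved from 10.71 to 6.45.

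U4305, the site listed for SNORD41, had the highest level of the region. Its counts were 350, 552 and 14923 in the control NextSeq libraries and 180878, 214246 and 234580 in the oxidized ones. The lowest oxidized library stood far above the highest control, which was replicate 3. In CPM this was 69.8 ± 111 (SD, n = 3) against 16074 ± 2092 (SD, n = 3). The control mean rests on replicate 3, with 4.83, 6.82 and 198 CPM in control replicates 1, 2 and 3. The log2 fold change was 12.39 (SE 1.79, edgeR's quasi-likelihood test, Benjamini-Hochberg adjusted p = 0.0222). Without control replicate 3 it was 15.07. The MiSeq pilot gave 400 and 400 counts in the control libraries against 35200 and 30344 in the oxidized ones, again without overlap. Its log2 fold change there was 11.25 (SE 0.35; edgeR's quasi-likelihood test, Benjamini-Hochberg adjusted p = 0.00555). Among the 106 known sites, U4305 ranked 9 by mean oxidized CPM in the NextSeq libraries and 7 in the MiSeq libraries.

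G4391, in the peptidyl transferase ring, was next. The control NextSeq libraries held 650, 800 and 13575 counts and the oxidized ones 69571, 67801 and 76308. Replicate 3 was again the high control, and the groups did not overlap. The log2 fold change was 10.86 (SE 1.44; edgeR's quasi-likelihood test, Benjamini-Hochberg adjusted p = 0.0148), and 12.82 without control replicate 3. In the MiSeq pilot the counts were 50 and 0 in the control libraries against 10456 and 9403 in the oxidized ones. The MiSeq controls thus held about 1 read at this site, and the ratio of the counts summed over libraries, each divided by its summed total, was 10114, with a 95% exact counting interval of 1805 to 400457 that covers counting error only. Its rank among the known sites was 22 in the NextSeq and 26 in the MiSeq libraries.

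G4195, the P-loop guanosine, had 100, 100 and 1510 counts in the control NextSeq libraries and 39371, 35935 and 36908 in the oxidized ones. Its log2 fold change with all libraries, 13.04, was the largest of the 6 (SE 1.46, edgeR's quasi-likelihood test, Benjamini-Hochberg adjusted p = 0.00604). Without control replicate 3 it was 14.74, below the 15.07 of U4305. The MiSeq libraries held 150 and 0 counts in the control group against 1907 and 1253 in the oxidized group. That was 3 reads against 63, a ratio of 535 by summed counts with a counting interval of 175 to 2664. The site ranked 44 of 106 in the NextSeq libraries and 71 in the MiSeq libraries.

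G4369, listed for SNORD60, was the weakest of the isolated sites. Its counts were 103, 250 and 5422 in the control NextSeq libraries and 20866, 20320 and 23731 in the oxidized ones, with no overlap. The log2 fold change was 10.56 (SE 1.74; edgeR's quasi-likelihood test, Benjamini-Hochberg adjusted p = 0.0359), and 13.16 without control replicate 3. In the MiSeq pilot the control libraries held 150 and 0 counts and the oxidized ones 550 and 750. The groups did not overlap there either, but with 3 reads against 26 the site missed the threshold (log2 fold change 8.23, edgeR's quasi-likelihood test, Benjamini-Hochberg adjusted p = 0.0628). DESeq2's Wald test called it (adjusted p = 0.00148).

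**Figure D2:**
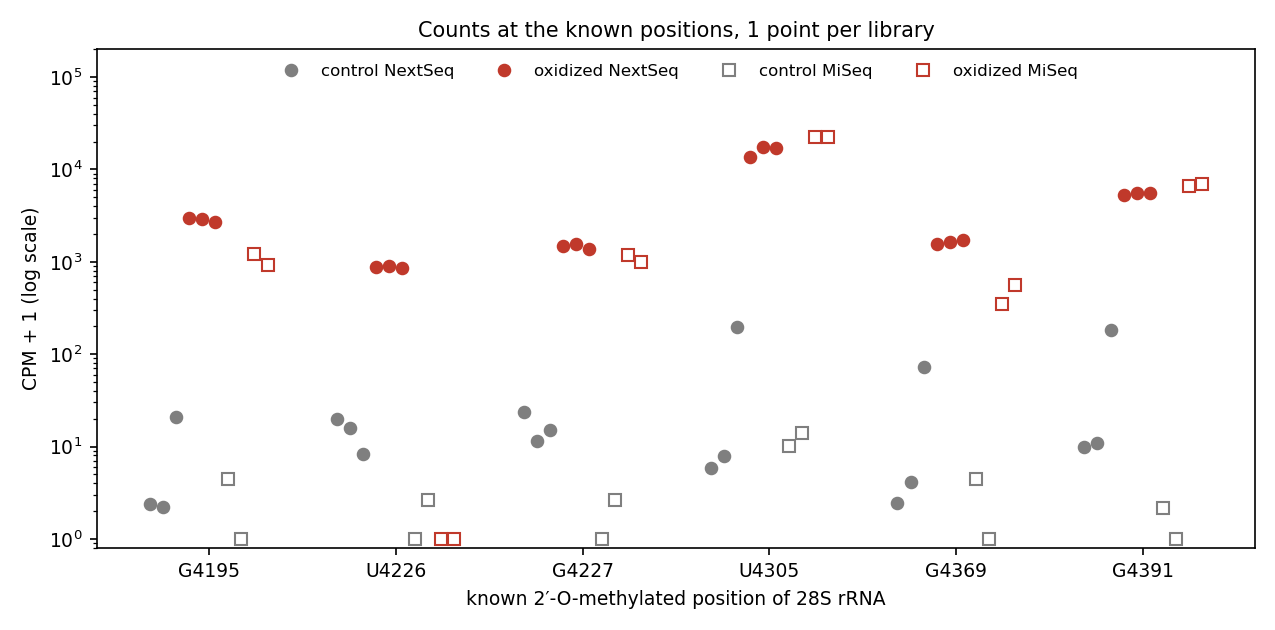
CPM + 1 on a log scale at the 6 known sites, 1 point per library, with filled circles for the NextSeq and open squares for the MiSeq libraries. Every oxidized NextSeq library lies above every control library at all 6 sites, and both oxidized MiSeq libraries are at 0 counts at U4226.

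The adjacent sites U4226 and G4227, both listed for U58 snoRNAs, were detected together in the NextSeq libraries only. As background, nucleases do not cleave on the 3′ side of a methylated ribose, and U4226 is exposed by oxidation and β-elimination only from an end at G4227. U4226 had 1355, 1200 and 550 counts in the control NextSeq libraries and 11702, 10939 and 11626 in the oxidized ones. G4227 had 1658, 850 and 1053 in the control libraries and 19429, 18906 and 19040 in the oxidized ones. At both sites the oxidized libraries were all above the control libraries, and control replicate 3 was not the high one. The log2 fold changes by edgeR's quasi-likelihood test were 9.80 for U4226 (SE 1.01, Benjamini-Hochberg adjusted p = 0.00422) and 10.42 for G4227 (SE 0.88, adjusted p = 0.00182). They moved less without control replicate 3 than those of the other 4 sites, to 9.35 and 10.10.

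The count of U4226 over that of G4227 was 0.602, 0.579 and 0.611 in the oxidized NextSeq libraries (mean 0.597 ± 0.017, SD, n = 3). In the control NextSeq libraries the ratio was 0.817, 1.41 and 0.522, a wide spread at low counts. Neither oxidized MiSeq library held a count at U4226, while G4227 had 1853 and 1350. At the mean NextSeq ratio, 1107 and 806 counts would have stood at U4226 in them. Taking 3 reads, or 150 counts, as the limit that a count of 0 allows, the MiSeq ratios were at most 0.0809 and 0.111. The MiSeq controls held 0 and 50 counts at each of the 2 sites. U4226 was therefore at or under the limit of detection in all 4 MiSeq libraries, and no fold is given for it there. G4227 was called in the MiSeq pilot (log2 fold change 10.71, edgeR's quasi-likelihood test, Benjamini-Hochberg adjusted p = 0.0289), on 1 control read against 64 oxidized reads. Where the MiSeq control library that remained was at 0, the fitted log2 fold changes were 16.84 at G4195 and 19.51 at G4391 (without control replicate 1) and 17.23 at G4227 (without control replicate 2), values that depend on how a count of 0 is treated. The test of whether the oxidized-against-control difference differed between experiments passed for 33 of the 250 positions, with 8.2% of all positions passing. That count was 0 without either of the MiSeq control libraries, 8 and 10 without control NextSeq replicates 1 and 2, 19 without oxidized MiSeq replicate 2 and 50 without control NextSeq replicate 3. Among the 6 sites it passed for U4226 alone (edgeR's quasi-likelihood test, Benjamini-Hochberg adjusted p = 0.0469). For the other 5 the adjusted p by edgeR was 0.368 or higher, but the 95% intervals of the difference reached from -7.07 at G4391 to 7.55 at G4195 on the log2 scale. The call at U4226 did not hold when any 1 of the 10 libraries was left out, where the adjusted p by edgeR was 0.0556 or higher. Passage, sequencer, depth and RNA input changed together between the experiments and cannot be told apart.

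**Figure D3:**
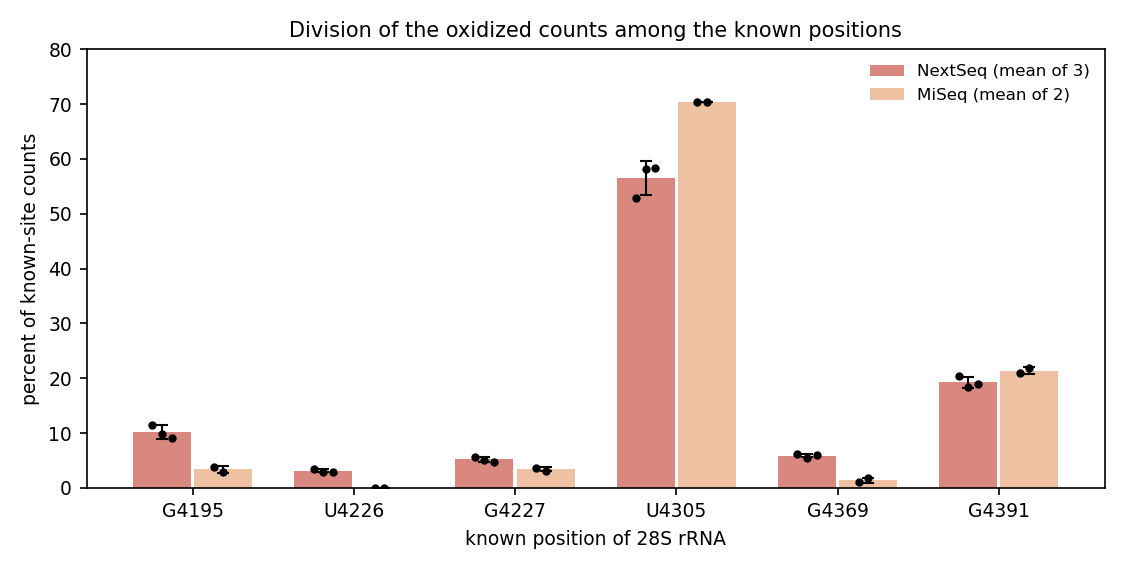
Percent of the region's known-site counts that fell on each site in the oxidized libraries; bars are means, error bars SD, and points single libraries (3 NextSeq, 2 MiSeq). U4305 took 56.5% in the NextSeq and 70.4% in the MiSeq libraries, and U4226 took none in the latter.

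Among the known sites, the oxidized counts divided in the same order in each of the 3 NextSeq libraries: U4305, G4391, G4195, G4369, G4227 and U4226. U4305 took 56.5% ± 3.1 (SD, n = 3) of them, G4391 19.2% ± 1.0, G4195 10.2% ± 1.2, G4369 5.84% ± 0.30, G4227 5.18% ± 0.48 and U4226 3.10% ± 0.29. G4369 and G4227 were the closest neighbours in this order: their ranges were 5.52% to 6.10% and 4.73% to 5.68%, which overlap. In the MiSeq libraries U4305 took 70.4% ± 0.031 (SD, n = 2) and G4391 21.4% ± 0.63, while G4195 took 3.36% ± 0.64, G4227 3.42% ± 0.41, G4369 1.42% ± 0.45 and U4226 none. The 2 experiments did not overlap at any of the 6 sites, and in every one the exact permutation test of 3 against 2 libraries gave its smallest p, 0.2, also after Benjamini-Hochberg adjustment over the 6. The shares of a library add up to a fixed whole, so a shift at 1 site moves the others and these are not 6 separate results. How many known sites outside the region separate in this way was not counted. G4195 and G4227 could not be ordered in the MiSeq libraries.

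The control libraries showed a gap at the known sites. The gap divides the count at a site by the median over its flanks, 10 positions to either side without other known sites, so that a value of 1 means no gap. Its median over the 6 sites was 0.0535, 0.0706 and 0.264 in the control NextSeq libraries (mean 0.129 ± 0.117, SD, n = 3) and 0.0380 and 0.0160 in the MiSeq ones. The other 100 known sites had medians of 0.0786, 0.120 and 0.332 in the same NextSeq libraries, and the region's 244 other positions 0.967 to 1.05. A gap was not particular to known sites. By mean gap of the NextSeq controls, between 1 (G4195) and 12 (G4391) of the 244 other positions stood at or below a site. Control replicate 3 raised this mean at G4195, U4305, G4369 and G4391, and the ranks were not computed without it. In the MiSeq controls it was 2 (G4195) to 9 (U4305 and G4391), with flank medians of only 375 and 300 counts at G4391. The region's sites had the lower median in 5 of 5 control libraries when set beside the other known sites, a difference that was not tested. Without control replicate 3 the mean gap of the NextSeq controls was 0.0620.

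In control replicate 3 the gap differed from site to site. At G4391 it stood at 0.898, against 0.0611 and 0.0747 in replicates 1 and 2. At U4305 it was 0.575 against 0.0458 and 0.0664, and at G4369 0.398 against 0.0424 and 0.108. At G4195 it was 0.130 against 0.0300 and 0.0285. At the adjacent pair it kept within or near the other replicates: 0.0624 against 0.0925 and 0.0777 at U4226, and 0.119 against 0.120 and 0.0599 at G4227. Oxidized NextSeq replicate 3, of the same passage, held counts near those of the other oxidized libraries at all 6 sites.

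**Figure D4:**
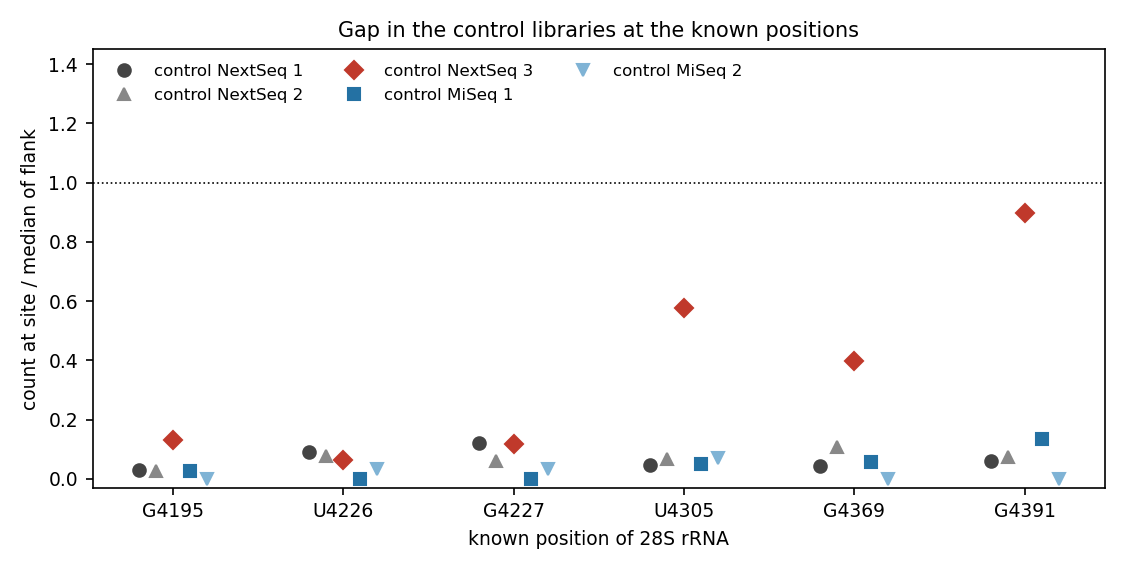
Count at each known site over the median count of its flank, in each of the 5 control libraries; the dotted line at 1 marks no gap. Control NextSeq replicate 3 reaches 0.898 at G4391 and 0.575 at U4305, and stays at 0.119 or below at U4226 and G4227.

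The 10 positions directly beside a known site held little in the oxidized NextSeq libraries. G4194 and G4196, on either side of G4195, had 0 counts in all 3, which allows up to 12.2 CPM in the shallowest of them at 3 reads, against 35935 counts or more at G4195. Their control counts were 252, 200 and 102 at G4194 and 3869, 4509 and 2252 at G4196. G4370, after G4369, had 50 counts in each oxidized NextSeq library, and G4390 and G4392, around G4391, had 100, 150 and 50 and 200, 352 and 250. As a share of the site's own count, the positions beside G4195, G4369 and G4391 held between 0% and 0.396% on average over the 3 libraries. Beside the adjacent pair the shares were higher, at lower counts: G4225 had 150, 250 and 100 counts, 1.48% ± 0.73 (SD, n = 3) of U4226, and U4228 had 450, 200 and 353 counts, 1.74% ± 0.64 of G4227.

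By level, the highest counts beside a known site stood around U4305. A4306, directly after it, held 3107, 3153 and 3558 counts in the oxidized NextSeq libraries, the highest value of any position that is not a known site in each of them, and 1.57% ± 0.13 (SD, n = 3) of the count at U4305. A4303 held 900, 1650 and 1104 counts, or 0.579% ± 0.166, and G4304 held 852, 700 and 1300, or 0.451% ± 0.115. In the controls A4306 had 13937, 18068 and 40476 counts, so that its oxidized CPM, 250 ± 14 (SD, n = 3), overlapped with its control CPM, 317 ± 190. That overlap rests on control replicate 3: the 3 controls stood at 192, 223 and 536 CPM and the 3 oxidized libraries at 235, 256 and 260 CPM, so that without replicate 3 every oxidized library was above both controls. Under TMM scaling A4306 and A4303 were higher in the oxidized libraries by 3.78 (SE 0.60) and 3.38 (SE 0.66) on the log2 scale (both edgeR's quasi-likelihood test, Benjamini-Hochberg adjusted p = 0.0359). With library totals only both changed sign, to -0.34 and -0.73, and were not called. Both calls were also lost without control replicate 1 or 2. They were the only positions besides the known sites called higher at any fold, at an adjusted p under 0.05, in the NextSeq experiment. There 3.02% of all positions were called so. In the oxidized MiSeq libraries A4306 had 350 and 353 counts, or 1.08% ± 0.12 (SD, n = 2) of U4305.

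Away from the sites, the oxidized NextSeq libraries held 0 counts at 64, 72 and 64 of the 250 positions, and the median of the 244 other positions was 50 counts, 1 read, in each. By distance, the 10 positions next to a known site averaged 40.0 ± 2.2 CPM (SD, n = 3), a mean carried by A4306, since their median was between 5.48 and 14.2 CPM in the 3 libraries. Those 2 to 3 nt away averaged 10.1 ± 3.5 CPM, those 4 to 10 nt away 10.7 ± 0.45 CPM and those over 10 nt away 9.07 ± 0.67 CPM. In the oxidized MiSeq libraries the same 4 classes averaged 90.4, 42.8, 90.8 and 76.5 CPM, with no steady trend by distance. At 26 of the 244 other positions all 3 oxidized libraries were at 0. The other positions averaged 10.2 to 11.4 CPM in these libraries and 238 to 318 CPM in the control ones. In the oxidized MiSeq libraries 105 and 121 positions were at 0, and the other positions averaged 78.3 and 78.5 CPM against 222 and 256 CPM in the MiSeq controls. After A4306, the highest of the other positions in the NextSeq libraries were A4303 and G4376, the latter with 900, 950 and 1500 counts. In the MiSeq libraries they were C4277 with 1053 and 1000 counts, U4299 with 653 and 1000 and U4301 with 700 and 752. C4277 stood at 705 ± 48 CPM (SD, n = 2) against 574 ± 130 CPM in the MiSeq controls, a difference that missed the threshold (edgeR's quasi-likelihood test, Benjamini-Hochberg adjusted p = 0.138).

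Of the region's 250 positions, 25 were lower in the oxidized NextSeq libraries at an adjusted p under 0.05, and 18.8% of all positions tested were. Without control replicate 3 the count was 55, without control replicate 1 it was 0 and without control replicate 2 it was 2. With library totals only, 166 positions were lower and 6 higher, where TMM scaling gave 25 lower and 8 higher. Every oxidized library was below every control library in CPM at 228 of the 250 positions, against 85.6% of all positions. U4300, 5 positions before U4305 and a strong control end in the NextSeq experiment, was among the 25: it had 246660, 280732 and 32798 control counts and 150 in each oxidized library (log2 fold change -4.02, SE 1.10, edgeR's quasi-likelihood test, Benjamini-Hochberg adjusted p = 0.0449). That call was lost without control replicate 1 or 2 or any 1 oxidized library.

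In the MiSeq pilot 4 of the 6 known sites were called above the log2 threshold of 7 (U4305, G4391, G4227 and G4195) and no other position of the region was, with 2.36% of 6661 positions called in all. With the replicate number as a block, 0 of the 6661 positions were called, these sites included. In CPM, both oxidized MiSeq libraries were above both controls at 45 positions of the region, of which 5 were known sites, against 14.4% of all positions. At an adjusted p under 0.05, 115 of 249 positions tested in the region, or 46.2%, were lower in the oxidized libraries, against 51.6% of all positions. With either of the control libraries left out this count was 2. At any fold and an adjusted p under 0.05, 29 were higher, against 10.6% of all positions. Besides the known sites, 1 position passed a log2 fold change of 6 (2.85% of all positions did): A4395, 4 nt after G4391 in the gggauaac stretch, with 100 and 100 control counts and 300 and 500 oxidized counts. Its log2 fold change was 6.92 (SE 0.60; edgeR's quasi-likelihood test, Benjamini-Hochberg adjusted p = 0.00693), and it was not called when either MiSeq control library was left out (adjusted p = 0.110 and 0.120). In the NextSeq libraries it went the other way in CPM, with 6720, 7556 and 15121 control counts and 100, 0 and 50 oxidized counts. G4390, directly before G4391, had 400 and 300 oxidized MiSeq counts against 1100 and 1050 in the deeper controls, 238 ± 24 CPM (SD, n = 2) against 29.8 ± 6.8 CPM. It was higher by 3.27 on the log2 scale (edgeR's quasi-likelihood test, Benjamini-Hochberg adjusted p = 0.00693), and that call was also lost without either control library.

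The control ends themselves were placed differently between libraries. By mean CPM of the control NextSeq libraries the 3 highest positions were G4325, G4415 and U4300, which in replicates 1 and 2 held 286821 and 334495, 278662 and 310048, and 246660 and 280732 counts. In replicate 3 the same positions held 22944, 24377 and 32798, and its highest was U4301 with 75212. The MiSeq controls were highest at A4297 (80411 and 55647), U4298 (79455 and 53719) and A4280 (64637 and 56243). The 10 highest other positions of replicate 1 were the same 10 in replicate 2, and none of them was among the 10 highest of replicate 3 or of either MiSeq control. G and C made up 53.3% of the other positions and took 74.8% and 74.9% of the counts there in replicates 1 and 2, but 42.7% in replicate 3 and 41.0% and 43.1% in the MiSeq controls. In the oxidized libraries the same share was 39.0% to 50.3%. Replicate 3 resembled the MiSeq controls more than replicates 1 and 2 in its order of positions, with rho of 0.55 and 0.54 against 0.18 and 0.19, a description over 244 neighbouring positions.

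The level of a site in the oxidized libraries was set beside the control level at the position directly after it, the end from which a single β-elimination exposes the site. In the NextSeq controls that position was highest after U4305 (A4306, 317 ± 190 CPM, SD, n = 3) and lowest after U4226 (G4227, 15.8 ± 6.4 CPM), and without control replicate 3 likewise, at 208 and 16.7 CPM. The same 2 sites were the highest and the lowest of the 6 in the oxidized libraries. In the MiSeq controls these positions were again the highest and the lowest, at 307 ± 3 CPM (SD, n = 2) and 0.823 ± 1.16 CPM. The latter value is 1 read, from 0 and 50 counts. G4227 is itself a known site, where the controls have a gap, so its low level adds little. The other 4 sites did not keep this order: G4391 was second in the oxidized libraries of both experiments, while G4392 after it held 127 ± 130 CPM in the NextSeq controls, 51.8 CPM without control replicate 3, and 26.0 ± 6.5 CPM in the MiSeq controls. G4370, after G4369, held 128 ± 67 CPM in the NextSeq controls and 90.3 CPM without replicate 3. It stood above G4392 both times, by little with all controls. Their places among the other positions depended on that library. Without replicate 3, U4228 after G4227 (91.3 CPM) stood above G4370, and G4196 after G4195 (54.5 CPM) above G4392. With it, U4228 and G4196 were below both, at 99.8 and 46.3 CPM. Across all 106 known sites the 2 levels had a Spearman's rho of 0.706 in the NextSeq experiment, 0.791 without control replicate 3 and 0.531 in the MiSeq experiment. With the control level at the site itself, rho was 0.467, 0.464 and 0.356, and with the control level 2 nt after the site it was 0.605, 0.546 and 0.407. At 1 nt before the site it was 0.384, 0.318 and 0.402, so positions on either side also went with the oxidized level. Over the 6 sites of the region alone, the rho with the position directly after was 0.714, 0.429 and 0.486, and with the site itself 0.657, -0.543 and 0.147, too few points to order the offsets. These are descriptions across sites of shared libraries and of one RNA pool, with no test.

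Next to the adjoining stretches of 28S rRNA, the region had known sites at 2.40% of its positions, against 1.43% of 280 positions at 3900 to 4179 and 5.22% of 230 positions at 4430 to 4659. Its known sites took 90.6% to 92.2% of its oxidized NextSeq counts, which overlaps with 90.8% to 92.2% in the former stretch and lies below the 94.7% or more in the latter. In the oxidized MiSeq libraries it had 62.4% and 62.5%, below both the former (65.3% and 67.0%) and the latter (69.1% and 69.5%). The region took 2.85% to 3.27% of all oxidized NextSeq counts and 5.85% to 7.75% of all control NextSeq counts, and 5.10% of the oxidized and 5.42% and 6.25% of the control MiSeq counts. The differences between stretches were not tested.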

How the data were processed

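RibOxi-seq counts of PA1 cells were taken from 10 libraries. Per the labels, the authors trimmed reads with cutadapt 1.12, aligned them with TopHat2 2.1.1 to hg19 and converted them with SAMtools 0.1.19. The deposited values are described as counts of sense 3′-ends per position of 18S and 28S rRNA after collapse of PCR duplicates by a random primer stretch. Since low values lie at multiples of 50, a value need not be a number of reads. The authors' DESeq2 tables of fold changes and p-values were not used.

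Entries without an 18S or 28S name held 0 counts and were dropped. Positions with any count in an experiment were tested with edgeR 4.0.16 in R 4.3.3 (TMM, quasi-likelihood test, Benjamini-Hochberg adjustment over 18S and 28S), for NextSeq and MiSeq separately. A model over all 10 libraries tested the difference between experiments. Alternatives included DESeq2 1.42.0, other scalings and filters, the replicate number as a block and leaving out each library. Exact permutation tests used scipy 1.17.1. The scripts were tested on simulated data. The members, lists and tests were chosen with earlier results of these data known. Named positions were the known sites, those directly beside them, others that exceeded 6 in log2 fold change at an adjusted p under 0.05, and the 3 highest other positions by mean CPM of each group. Intervals cover counting error only.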

Additional observations from a re-analysis of the deposited data

Results flagged for a closer look

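At 4 of the positions named above, the oxidized-against-control difference itself differed between the NextSeq and MiSeq experiments, out of 33 such positions in the region (13.2% of 250, against 8.2% of all positions tested). At A4306 it was larger in the NextSeq libraries by 3.47 on the log2 scale (SE 0.76; edgeR's quasi-likelihood test, Benjamini-Hochberg adjusted p = 0.0266), and by 0.0010 with library totals only. The call at A4306 was lost under 9 of 21 alternatives, among them leaving out control NextSeq replicate 1 or 2 or any 1 MiSeq library. The count of 33 itself ranged from 0 to 50 when 1 library was left out. At U4226, G4225 and A4368 the fitted differences were 16.84, 13.63 and 15.03, but both oxidized MiSeq libraries held 0 counts at each of them, so these values depend on how a count of 0 is treated and are not folds. G4225 had 150, 250 and 100 counts in the oxidized NextSeq libraries and A4368 had 50, 150 and 50. In 29 of the 33 positions at least 1 of the 4 groups was at 0 in all its libraries. The remaining 4 were A4306, A4338, A4384 and U4394. A4338, A4384 and U4394 were chosen for naming after their values were seen. A4338 was larger by 3.49 in the NextSeq libraries, and A4384 and U4394 were smaller by -5.09 and -4.33.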

How the results depend on the processing

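Depth limits the low counts: 1 read is 3.65 to 4.07 CPM in the oxidized NextSeq and 31.9 and 36.9 CPM in the oxidized MiSeq libraries. The number of known sites called was 6 in the NextSeq experiment under 22 of 24 alternatives, 2 with library totals only and 0 at an adjusted p under 0.0001. No other position was called there under any of the 24. In the MiSeq experiment the known sites called numbered 0 with the replicate block and 0 at an adjusted p under 0.0001. Other MiSeq positions called numbered 2 with 28S positions alone, and 1 each with DESeq2, TMMwsp, counts divided by 50 and rounded, edgeR's likelihood ratio test, filterByExpr or a log2 fold change above 6, and 0 to 2 when 1 library was left out. NextSeq positions lower in the oxidized libraries numbered 58 with DESeq2, 48 with DESeq2 on counts divided by 50 and rounded (chosen after seeing the data), 0 with edgeR on those counts, 43 with the likelihood ratio test, 166 with library totals only, 1 with the replicate block, 0 at an adjusted p under 0.0001, and 0 to 55 when 1 library was left out. MiSeq positions lower numbered 0 with the replicate block, 0 at an adjusted p under 0.0001, and 2 to 156 when 1 library was left out. Positions that differed between experiments numbered 92 with DESeq2, 7 with counts divided by 50 and rounded, 70 with the likelihood ratio test, 50 with library totals only, 0 with the replicate block, 0 at an adjusted p under 0.0001, and 0 to 50 when 1 library was left out. The MiSeq share difference was 62.8 points with the neighbouring positions included. With library totals only, A4306 and A4303 changed to -0.34 and -0.73 in the NextSeq experiment. The cause of these changes was not tested. Whether replicate numbers pair the samples was not settled. Deviations of same-numbered libraries from their group means correlated at -0.053 to 0.034 over 2152 NextSeq positions. Those of different-numbered libraries correlated at -0.050 to 0.052. Over 2298 MiSeq positions the values were -0.032 and 0.032, which mirror each other because each group had 2 libraries, so they cannot decide. In the NextSeq experiment replicate 3 of both groups shared passage 4. The replicate block left all 6 NextSeq sites called.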
